A study of Arabidopsis thaliana with 2 samples.

Results

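The 5 genes described here govern or carry out the synthesis of flavonols in Arabidopsis thaliana, and they were looked up in a list of ChIP-seq peaks for the flower-meristem regulator LEAFY (LFY). They are the regulator genes MYB11, MYB12 and MYB111 and the enzyme genes FLS1 and FLS6, out of 37899 nuclear genes in the gene table. They were chosen by locus with the peaks of this list already known, so the choice used the presence and the position of a peak. A gene counted as having a peak when its promoter was the nearest one or when the annotation of the peak centre named its locus. By that rule 3 of the 5 had a peak and 2 had none. Among all nuclear genes 1.5% had a peak (570 of 37899), and nothing is read from the difference, since the peaks took part in the choice. Narrower rules give a gene fewer chances to be counted. The nearest promoter alone counts 1.32% of nuclear genes and the locus of the annotation alone 1.04%, and each counts the same 3 flavonol genes. Peaks centred within 3 kb of a transcription start site (TSS) count 1.36% of nuclear genes and the same 3, and peaks within 1 kb count 0.865% and leave out MYB12.

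Chromatin was precipitated with a polyclonal rabbit serum that recognises LFY for 1 library, and left without antibody for 1 input library. Both came from inflorescences of ap1 cal1 plants, grown for 4 weeks, that carried LFY fused to the glucocorticoid receptor (LFY-GR) behind the 35S promoter. Tissue of both was taken 4 h after 10 µM dexamethasone, the steroid that lets such a fusion enter the nucleus. The 35S promoter drives the fusion in most cells rather than where LFY is normally made, the serum can also bind native LFY, and plants without dexamethasone or without the construct were not analysed here. With 1 library of each kind there is no error between libraries for any value, and no test was made. Read counts were not used, so depth is unknown, and with no expression data the tissue label could not be checked against marker genes.

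Flavonols are colourless flavonoids, such as kaempferol and quercetin, that absorb UV light, affect auxin transport and are abundant in pollen and petals. MYB12, MYB11 and MYB111, also named PRODUCTION OF FLAVONOL GLYCOSIDES, are closely related R2R3-MYB activators that switch on the early flavonoid enzymes and FLS1 without a bHLH partner, each in its own set of organs. Flavonol synthase then converts dihydroflavonols to flavonols; FLS1 supplies most of this activity, whereas little or none has been found for FLS6.

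Of the regulators, MYB111 and MYB12 had 1 peak each and MYB11 had none. MYB111 (AT5G49330), which acts mainly in cotyledons, had the highest-scoring of the peaks at flavonol genes. The peak lay on chromosome 5 from 20000767 to 20002062 (TAIR10), was 1296 bp wide and had a score of 275.92, a value that the authors' peak caller gave on a scale not stated here. It was 133rd of the 529 peaks in the list by score, and 74.9% of all peaks scored lower. A limit at the 133 highest-scoring peaks, which count 0.377% of nuclear genes, therefore has this peak as its last one and keeps no other flavonol gene. Its centre lay 36 bp upstream of the TSS, and 17 peaks of the list were centred closer to theirs. The peak ran from 684 bp upstream to 612 bp downstream of the TSS, so it covered the promoter and the start of the gene.

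MYB12 (AT2G47460), the main flavonol regulator of roots, had a peak of a different shape and place. It lay on chromosome 2 from 19477323 to 19479823, was 2501 bp wide and scored 242.25, at rank 156 of 529. The centre was 2236 bp downstream of the TSS, in exon 3 of 3. The upstream edge of the peak was itself 986 bp downstream of the TSS, and the other edge was 3486 bp downstream. The MYB12 peak therefore left the annotated start of the gene uncovered, unlike that of MYB111.

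The MYB12 peak was wide for its score. Only 22 of 529 peaks were wider, and the median over the list was 1168 bp, with a range from 612 to 5326 bp. The 50 peaks within 25 score ranks on either side of it measured between 694 and 2415 bp, with a median of 1153 bp, and none reached its width. The MYB111 peak and the FLS6 peak, by the same comparison, were of middling width, since 20 and 22 of their own 50 rank neighbours were wider. Exon peaks as a class were broader, with a median of 1648.5 bp against the 1112 bp of promoter peaks, and the MYB12 peak was the 11th widest of 66 exon peaks. Whether a broad peak holds several bound sites was not tested, since the list gives no summit and no coverage.

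**Figure D1:**
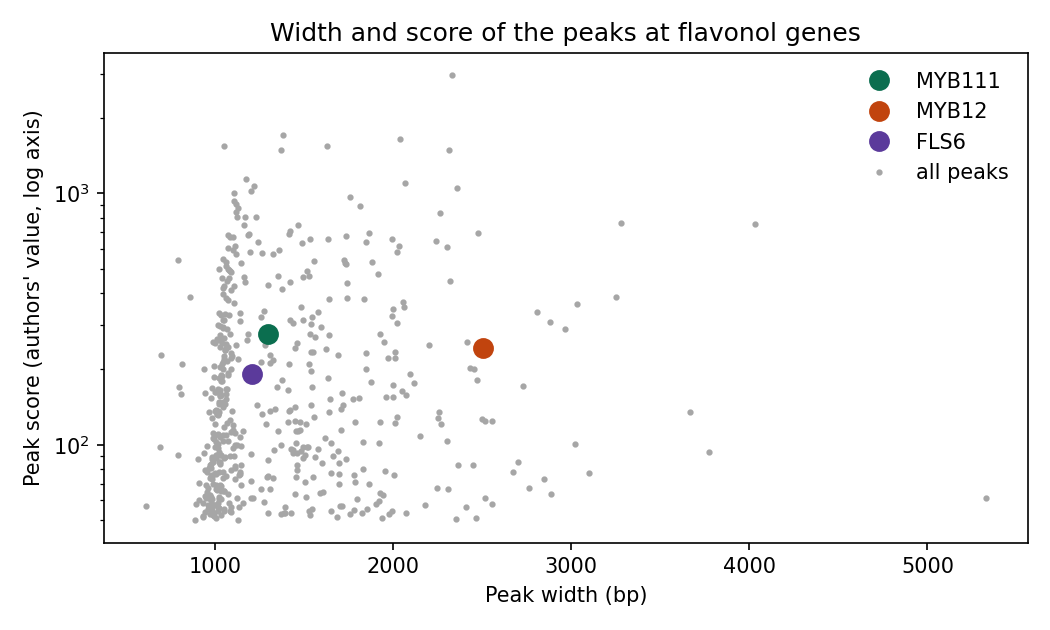
Peak width in bp (horizontal axis) against the authors' peak score (vertical log axis) for all peaks in grey and for the peaks at MYB111, MYB12 and FLS6 in colour. The MYB12 peak, at 2501 bp, stands to the right of the main body of peaks, whereas MYB111 (1296 bp) and FLS6 (1209 bp) stand near the median of 1168 bp.

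MYB11 (AT3G62610), the third of these regulators, was named by no peak. Its protein-coding neighbours in the gene order, the chaperone gene ERDJ3B and AT3G62615, had none either. The closest gene with a peak on one side was BRH1 (score 272.18), with 119 protein-coding genes between, and on the other side AT3G62988 (score 469.71), with 39 between. The lowest score in the list was 50.03, and the threshold of the caller is not known here, so the absence of a peak does not show that MYB11 was unbound.

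Of the enzyme genes, FLS6 had a peak and FLS1 had none. FLS6 (AT5G43935) had its peak on chromosome 5 from 17680905 to 17682113, 1209 bp wide, with a score of 190.43 and rank 198 of 529. The annotation placed the centre in the FLS6 promoter, 670 bp upstream of the TSS. The peak ran from 1274 to 66 bp upstream, so all of it lay before the TSS. In the gene order FLS6 stands between AT5G43930 and HOT5, which encodes S-nitrosoglutathione reductase. A further non-coding locus, AT5G06545, also lies between AT5G43930 and HOT5. Neither protein-coding neighbour was named by a peak.

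FLS1 (AT5G08640), the main flavonol synthase gene and a direct target of the MYB regulators in earlier work, was named by no peak. Its neighbours AT5G08630 and AT5G08650 had none, and the closest genes with a peak were AT5G08460 (score 326.62), with 20 protein-coding genes between, and AT5G09450 (score 96.42), with 42 between. The family has further members in FLS2, FLS3, FLS4 and FLS5, paralogues with little or no known activity, and none of these had a peak. FLS6 was thus 1 of 6 family genes with a peak, beside 1.5% of all nuclear genes and 1.98% of the protein-coding ones. It was among the genes chosen with the peaks known, so nothing is read from this count.

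**Figure D2:**
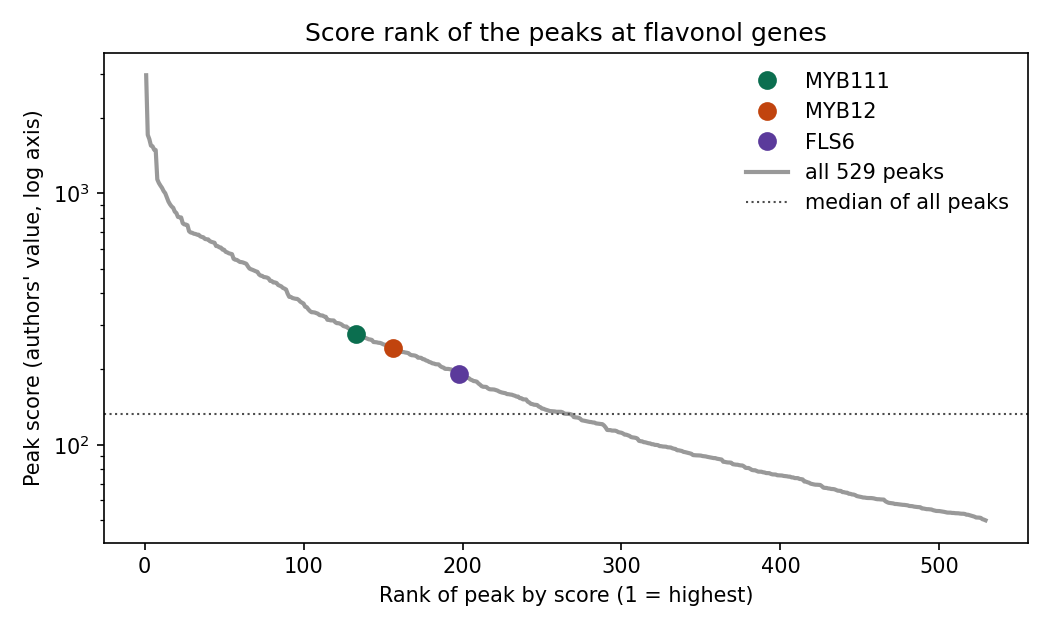
Rank of each peak by score (horizontal axis, 1 being the highest) against the authors' peak score (vertical log axis), with the peaks at MYB111, MYB12 and FLS6 as points on the grey line of all 529 peaks. The points stand at ranks 133, 156 and 198, above the dotted median of 132.77 and well below the top of the list.

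The scores of the 3 peaks lay close together, between 190.43 and 275.92, above the list median of 132.77 and far from its maximum of 2952.29. All 3 were among the 265 higher-scoring peaks, which count 0.755% of nuclear genes. Within its annotation class MYB111 was 48th and FLS6 was 70th of 214 promoter peaks, and MYB12 was 13th of 66 exon peaks. Exon peaks had a lower median score (100.15) than promoter peaks (122.11).

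Each of the 3 peaks had another placement relative to its TSS. MYB111 belonged to the 241 peaks that cover the TSS of their nearest gene (45.6% of the list, 95% Wilson interval 41.4 to 49.8). FLS6 belonged to the 168 that lie wholly upstream (31.8%, interval 27.9 to 35.8), and MYB12 to the 120 that lie wholly downstream (22.7%, interval 19.3 to 26.4). Intervals cover counting error only. In all 3 cases the locus in the annotation was the same as that of the nearest promoter, as it was for 331 of the 408 peaks whose annotation names a locus. Each peak was the only one at its gene.

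No other peak lay within 22 kb of these 3. The MYB111 peak was 22.3 kb from a peak at AT5G49280 (score 102.39) on the side of lower coordinates and 82.6 kb from one at PFD3, a prefoldin gene (698.99), on the other. The FLS6 peak was 55.3 kb from a peak at AT5G43830 (88.78) and 108 kb from one at GLK2, a chloroplast development gene (53.35). The MYB12 peak was 85.6 kb from that at LACS1, a gene of cuticular wax synthesis (113.77), and it was the last peak on chromosome 2, with 72 protein-coding genes beyond it in the gene order. Within 50 protein-coding genes on either side, 6 other genes had a peak around MYB111, 4 around FLS1, 3 each around MYB11 and FLS6, and 2 around MYB12. One peak can count for 2 genes here, the nearest and the one its annotation names. Among all protein-coding nuclear genes 1.98% had a peak, and with counts this small no difference between the windows is read. FLS1, which had no peak, had genes with a peak on both sides within this distance, and MYB11 had them on one side.

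**Figure D3:**
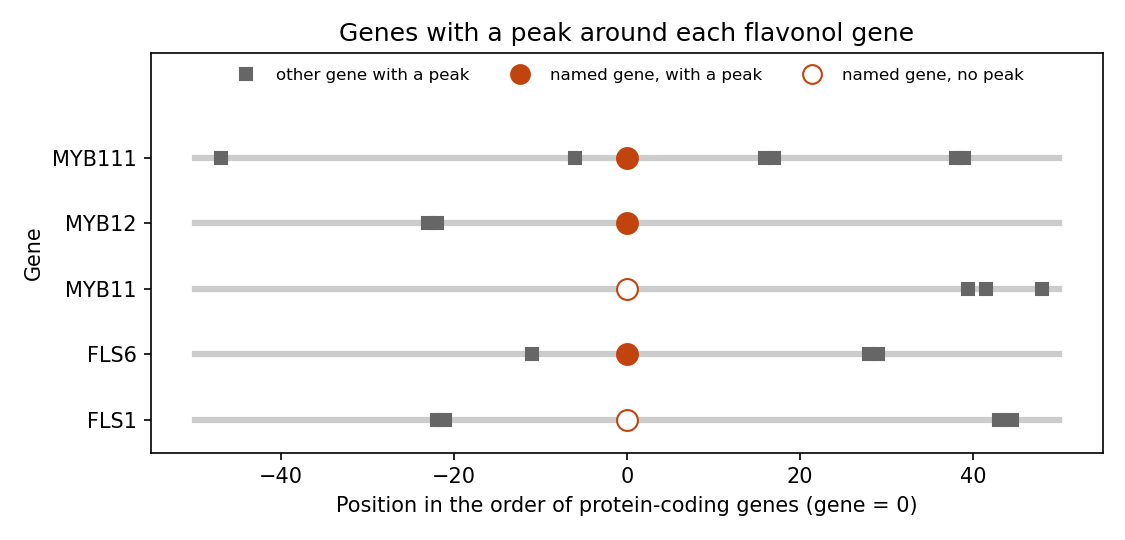
Genes with a peak (grey squares) within 50 protein-coding genes on either side of each flavonol gene, which stands at 0 on the horizontal axis and is filled where it has a peak and open where it has none. MYB111 had 6 other genes with a peak in its window and MYB12 had 2, both on the same side of it and counted for the same peak. Among all protein-coding nuclear genes 1.98% had a peak.

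The rest of the flavonoid pathway was looked up in the same way, and none of its 60 listed genes had a peak. These were 13 genes of phenylpropanoid and early flavonoid synthesis and 12 of the anthocyanin and proanthocyanidin branches. The others were 6 genes that serve the decoration of flavonols with sugars or methyl groups, 19 regulators and 10 repressors. Chalcone synthase (CHS), chalcone isomerase (CHI) and flavanone 3-hydroxylase (F3H), the early enzymes that the flavonol MYB proteins activate, were among those without one. The same held for HY5, the light-signalling bZIP gene that acts upstream of MYB12 and MYB111, for WRKY23, which lies upstream of the flavonol branch in roots, and for MYB21, MYB24 and MYB57 of stamens. The anthocyanin regulator genes MYB75 and MYB90, the proanthocyanidin regulator genes TT2 and TT8, and the repressor genes MYBL2 and MYB4 had none either. None of the 60 was a protein-coding neighbour of a gene nearest to a peak, a position that, together with genes having a peak, takes in 3.69% of nuclear genes. With 1.5% of nuclear genes having a peak, and 1.98% of the protein-coding ones, a count of 0 among 60 is close to the background and is no result about the pathway.

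Set beside their own family, the peaks of MYB111 and MYB12 were in the lower part of the scores. Of 130 genes named as MYB domain proteins in the gene table, 8 had a peak (6.15%). Without the flavonol regulators it was 6 of 127 (4.72%), against 1.98% of protein-coding and 1.5% of all nuclear genes. MYB12 and MYB111 were chosen with the peaks known, and the family includes genes reported before as LFY targets. No test of the family was made, and nothing is read from these shares. The other 6 genes had 7 peaks, of which 5 scored higher than that of MYB111 and 2 lower than that of MYB12. MYB37 (RAX1), an axillary meristem gene, had peaks with scores of 802.27 and 685.35, and MYB17 (LMI2), a floral meristem identity gene, had one of 746.94. MYB51, a regulator of indole glucosinolates, had a promoter peak of 462.42, and a peak of 498.96 at the 3' end of MYB48 had another gene as its nearest promoter. MYB83, which directs secondary wall formation, had a peak of 75.56, and MYB30, a regulator of the hypersensitive response, one of 54.91.

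Other MYB genes also had peaks centred in the promoter, as MYB111 did, or in the last exon, as MYB12 did. Of the 9 MYB peaks, 5 were centred in promoters, 3 in the last exon and 1 at a transcription termination site. In the whole list promoters held 40.5% of peaks, exons of any position 12.5% and termination sites 14.2%, and with 9 peaks no difference from these shares is read. The last-exon peaks were those of MYB12 (exon 3 of 3), MYB37 (exon 3 of 3) and MYB83 (exon 2 of 2). They were among 12 peaks of the whole list that were centred in the last of several exons. The MYB12 peak was the widest of the 9, the others measuring 981 to 1463 bp. The promoter peaks of MYB51 and MYB17 were centred 672 and 677 bp upstream of the TSS, about as far as that of FLS6 at 670 bp. The MYB51 peak lay wholly upstream, like that of FLS6, whereas the wider MYB17 peak reached across the TSS. The MYB30 peak, centred 66 bp upstream, also lay across the TSS, as that of MYB111 did.

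**Figure D4:**
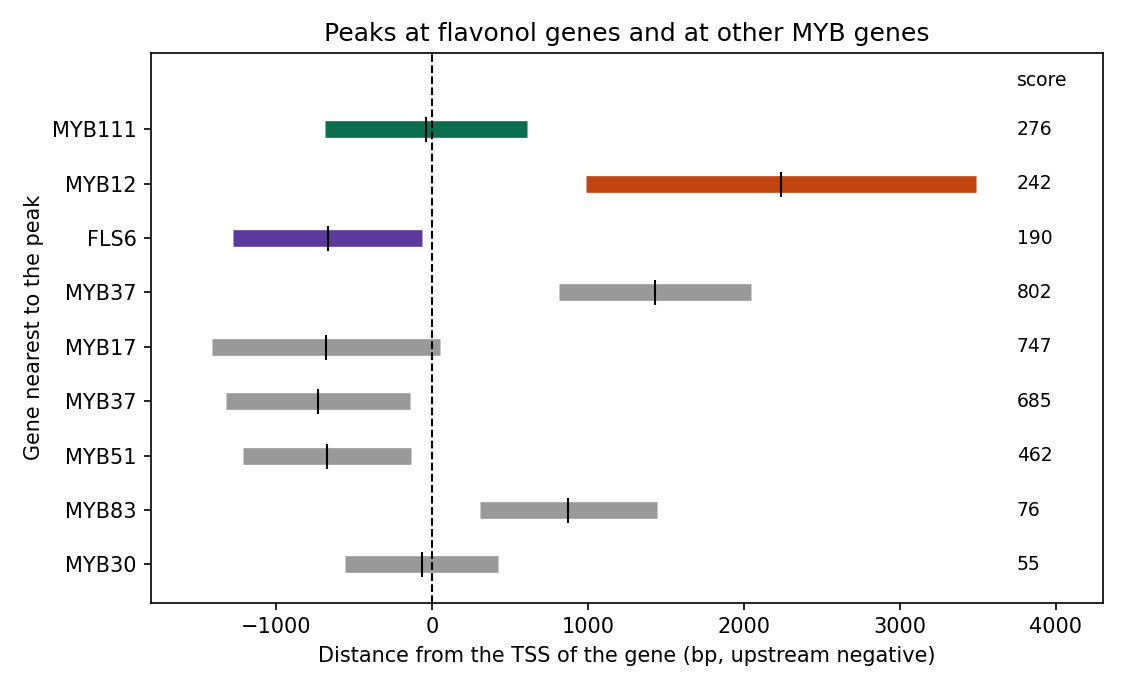
Extent of each peak in bp from the TSS of its nearest gene (dashed line, upstream negative), with a tick at the peak centre and the score at the right, for the flavonol genes in colour and other MYB genes in grey. The MYB111 peak lies across the TSS, the FLS6 peak before it and the MYB12 peak after it, from 986 to 3486 bp; the MYB48 peak, whose nearest promoter is that of another gene, is not drawn.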

How the data were processed

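The authors deposited a single peak list. HOMER annotatePeaks.pl with tair10 annotated the peaks of the LFY library, called against an unnamed contrast, per the file headers. The submitters' processing notes name FastQC, HOMER, MACS 1.4 and TAIR10. For the aligner, the calling threshold and duplicate reads, the methods were not given in the sources used here.

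The deposited peak score is the caller's own value, on a scale that no header states, and was used to describe, rank and filter peaks within the list; 1 alternative divided it by width for ranking. Widths and the extent of a peak relative to the TSS were computed from the start, end and centre distance as deposited. Symbols, gene order and the MYB family came from a RefSeq gene table (assembly TAIR10.1), whose coordinates were not used; 570 of 584 loci with a peak matched it, and the others were placed by locus code. All 69 genes of the 7 lists matched. Members and lists were chosen with earlier results of these data known. Named genes were the 5 flavonol genes, listed genes with a peak, their neighbours in gene order, and the genes 2 ranks above and below each peak in score; the listed genes without a peak, the genes of the next peaks and those of other MYB peaks were named after their values were seen. A planned count of 2-oxoglutarate oxygenase genes was not made because the table holds no family descriptions. Peak and promoter sequences were not used here. The assignment steps were tested on simulated data. Alternatives were 265 or 133 highest-scoring peaks, limits of 1 and 3 kb to the TSS, and other gene assignments. Python 3.11.15, pandas 2.3.3, SciPy 1.17.1, NumPy 2.4.6 and matplotlib 3.10.9 were used.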

Additional observations from a re-analysis of the deposited data

How the results depend on the processing

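The count of 3 flavonol genes with a peak was unchanged with the 265 higher-scoring peaks, with peaks within 3 kb of the TSS, and with either way of assigning genes alone. The count of 3 also stayed with protein-coding neighbours added, a rule that takes in 3.69% of nuclear genes in place of 1.5%. It was 2 with peaks within 1 kb, since the MYB12 peak is farther away. It was 1 (MYB111) with the 133 highest-scoring peaks, which count 0.377% of nuclear genes, and the FLS family there had 0 in place of 1. MYB111 is the last of these, so a stricter limit would leave none. The 60 other pathway genes had 0 under every alternative. The 8 MYB genes became 5 among the 133 highest-scoring peaks and 14 with neighbours added. The share of all nuclear genes moved with the same rules, from 1.5% to 0.377% and to 3.69%, so nothing is read from these changes. As a share of the peaks ranked, MYB12 stood at 29.5% from the top by score, at 51.4% by score per bp and at 19.7% among exon peaks, and FLS6 at 37.4% by score and 32.7% among promoter peaks. Score per bp has no defined meaning where the scale of the score is not stated, and it lowers wide peaks such as that of MYB12 by its construction. No paired analysis was possible because each group has 1 library. With no read counts, the depth that limits the list is unknown, and a gene without a peak is not shown to be unbound.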

Other observations

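The peaks next to those of the flavonol genes in score belonged to genes of varied roles. Just above FLS6 stood ADT4 (score 191.28, centre 1218 bp downstream of the TSS), which encodes an arogenate dehydratase of phenylalanine synthesis, and EDA40 (191.37). Just below it were AT1G22767 (189.87) and SDH2-1 (189.16), a succinate dehydrogenase subunit gene. Around MYB12 were AT4G04670 (245.69), the cytokinin response factor gene CRF2 (243.9, centre 2940 bp upstream), AT4G31136 (242.07) and GA20OX1 (241.66, 2726 bp upstream), a gibberellin synthesis gene of the same oxygenase superfamily as the flavonol synthases. Around MYB111 were LBD42 (276.78), GTE8 (276.51), CYP96A1 (275.76) and AT3G53470 (275.72). They are named for their place in the score order, and no relation between them and the flavonol genes was tested.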
